A study of Homo sapiens with 4 samples.

Results

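Giant neuronal adhesion and synapse genes are described here by the H3K4me1 peaks that lie in them in HepG2 cells, a human line from a liver tumour. The genes are CNTNAP2, CSMD1, CSMD3, PTPRD, LRP1B, CTNNA2, DLG2 and RBFOX1. A peak was a member where it overlapped the stated hg19 span of 1 of these 8 genes by at least 1 base. By this rule 710 of the 160601 distinct peaks of the deposited list were members, which is 0.442% of the list. The list holds regions where chromatin immunoprecipitation for H3K4me1, the monomethylated lysine of histone H3 found at enhancers and around promoters, gave more reads in cells treated with siRNA against LSD2 than in control cells. LSD2 (gene KDM1B) is a demethylase of this residue. The control cells received an siRNA against GL3, a luciferase sequence, as the file header names it. The siRNAs were introduced with a lipid reagent into cells grown in medium with 25 mM glucose, and the extent of the knockdown was not analysed here. The call compared 1 knockdown library with 1 control library, and the input library of each condition is not named in it. There are no replicates and therefore no test of knockdown against control, the depth of the libraries is unknown, and every interval below covers counting error only. Whether the 2 libraries came from separate cultures is not stated, and a region without a peak can be unchanged, lower or too thinly covered. Expression was not measured in these files, so neither the neuronal label of the genes nor their activity in HepG2 could be checked.

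These genes share their size, since each consists mostly of very long introns, and they are known for their roles in neurons. CNTNAP2 is a transmembrane protein of the neurexin family that gathers potassium channels along myelinated axons. PTPRD is a receptor tyrosine phosphatase that organises presynaptic terminals, LRP1B is an endocytic receptor of the low-density lipoprotein receptor family, and CSMD1 and CSMD3 are membrane proteins with CUB and sushi domains. Inside the cell, CTNNA2 (alpha-N-catenin) couples cadherins to actin, DLG2 (PSD-93) is a scaffold of the postsynaptic density, and RBFOX1 is an RNA-binding regulator of alternative splicing. H3K4me1 inside long introns is commonly read as a mark of intronic enhancers, but a peak of this list is a difference between a pair of libraries and not a level of the mark.

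All 8 genes held peaks along their length, and 7 of them held fewer per Mb than the rest of their chromosome. Over the 14.8 Mb of the spans there were 48.0 peaks per Mb (95% exact Poisson interval 44.6 to 51.7), against 59.9 (59.4 to 60.4) over the rest of the 6 chromosomes involved. Without the 2 genes on chromosome 2, the other 6 averaged 41.2 peaks per Mb. The pooled spans, the pooled flanks below and the rest hold the chromosomes in unlike proportions, which was not adjusted for. At least 1 peak lay in 555 of the 1474 bins of 10 kb in the spans, a share of 37.7% (95% Wilson interval 35.2 to 40.2%), beside a background of 40.3% over the bins of the whole list. The share in the genes is thus near the background and is no result about them.

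Among the surface proteins, CNTNAP2 (chromosome 7, 145813000 to 148118000) held 95 peaks in 2.305 Mb, or 41.2 per Mb (33.3 to 50.4). PTPRD (chromosome 9, 8314000 to 10613000) held 83 peaks at 36.1 per Mb (28.8 to 44.8), the lowest density of the 8. LRP1B (chromosome 2, 140989000 to 142889000) held 147 peaks at 77.4 per Mb (65.4 to 90.9), the most peaks and the highest density. The CUB and sushi domain proteins CSMD1 (chromosome 8, 2793000 to 4852000) and CSMD3 (chromosome 8, 113235000 to 114449000) held 85 and 50 peaks. Their densities were 41.3 (33.0 to 51.0) and 41.2 per Mb (30.6 to 54.3), a ratio of 1.002 (0.699 to 1.45), although they lie on opposite arms of the chromosome. Among the intracellular proteins, CTNNA2 (chromosome 2, 79740000 to 80876000) held 79 peaks at 69.5 per Mb (55.1 to 86.7). DLG2 (chromosome 11, 83166000 to 85338000) held 83 peaks at 38.2 per Mb (30.4 to 47.4). RBFOX1 (chromosome 16, 6069000 to 7763000) held 88 peaks at 51.9 per Mb (41.7 to 64.0).

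In order of density the genes ran LRP1B, CTNNA2, RBFOX1, CSMD1, CNTNAP2, CSMD3, DLG2 and PTPRD, and the intervals of every pair of neighbours in this order overlapped. The interval of LRP1B lay above those of the 6 genes that are not on chromosome 2, and that of CTNNA2 above those of the same genes except RBFOX1. The ratio of LRP1B to CTNNA2 was 1.11 (0.841 to 1.48). Chromosome 2 outside these genes was itself the densest of the 6 chromosomes, with 76.4 peaks per Mb, and chromosome 16 followed with 63.6. The part of the chromosome in the order of the genes was not tested.

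Relative to the rest of their own chromosome, 7 of the 8 genes had fewer peaks per Mb. In 4 of them the 95% interval of the ratio lay below 1: PTPRD at 0.729 (0.580 to 0.906), DLG2 at 0.736 (0.586 to 0.914), CNTNAP2 at 0.768 (0.620 to 0.940) and CSMD1 at 0.777 (0.620 to 0.962). CSMD3 at 0.775 (0.575 to 1.02), RBFOX1 at 0.817 (0.654 to 1.01) and CTNNA2 at 0.910 (0.720 to 1.13) had intervals that include 1. LRP1B stood at 1.01 (0.855 to 1.19). These 8 intervals are not adjusted for their number and treat peaks as independent.

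**Figure D1:**
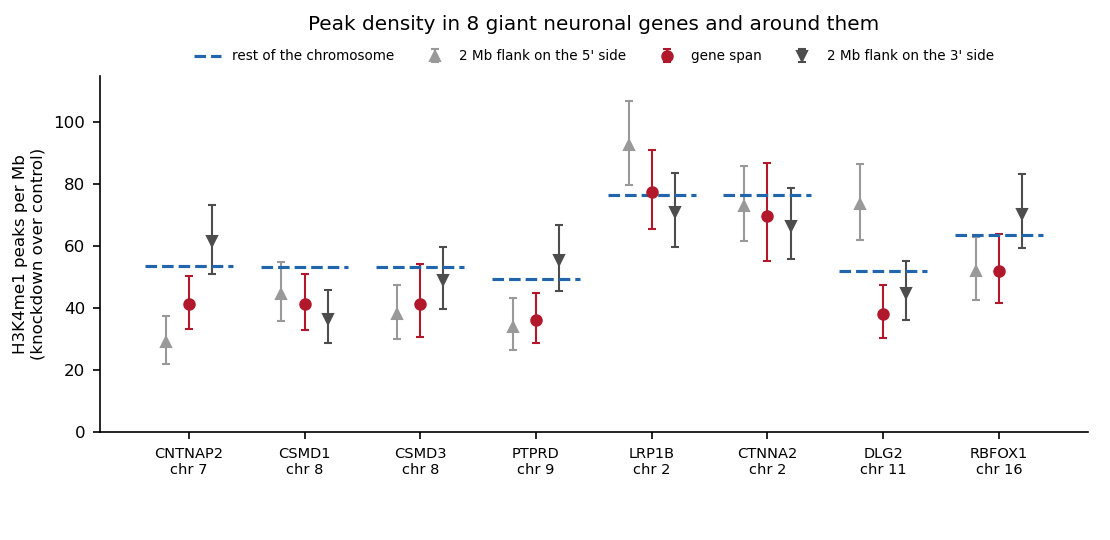
Peaks per Mb (vertical axis) in each gene span (red circles), in the 2 Mb on its 5' side and on its 3' side (grey triangles), with 95% Poisson intervals, and in the rest of its chromosome (blue dashes). LRP1B and CTNNA2 on chromosome 2 sit at 77.4 and 69.5, the other 6 genes between 36.1 and 51.9.

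Together the flanks of the 8 spans held 55.8 peaks per Mb (53.2 to 58.4), above the 48.0 (44.6 to 51.7) of the spans. Taken singly, most genes had a ratio to their flanks whose interval includes 1. Flanks were the 2 Mb on either side of a span, named 5' and 3' by the direction of transcription. The ratio of the span to both flanks together was below 1 in 7 genes with flanks of 2 Mb, in 5 with flanks of 1 Mb and in 8 with flanks of 5 Mb, but with 2 Mb its interval lay below 1 only in DLG2, at 0.645 (0.496 to 0.831). DLG2 stood beside a dense 5' flank of 73.5 peaks per Mb (62.1 to 86.4) and a 3' flank of 45 (36.2 to 55.3). CNTNAP2 lay on a rise, with 29.0 peaks per Mb (22 to 37.5) in the 5' flank, 41.2 in the gene and 61.5 (51.1 to 73.4) in the 3' flank. Its 3' flank was therefore 2.12 times as dense as its 5' flank (1.54 to 2.95). PTPRD showed the same order, with 34.0 (26.4 to 43.1) before the gene and 55.5 (45.7 to 66.8) after it. Its ratio to the flanks was 0.807 (0.614 to 1.05), and it moved to 1.09 with flanks of 1 Mb and to 0.608 with flanks of 5 Mb, so no direction can be given for it. The same holds for CSMD3, at 0.947, 1.08 with 1 Mb and 0.777 with 5 Mb, and for CSMD1, at 1.02, 1.07 and 0.900.

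LRP1B lay on a slope the other way, with 92.5 peaks per Mb (79.7 to 106.8) in the 5' flank and 71.0 (59.8 to 83.7) in the 3' flank, a 3'-to-5' ratio of 0.768 (0.612 to 0.960). RBFOX1 had 52.0 (42.5 to 63.0) before it and 70.5 (59.3 to 83.1) after it, and the gene itself stood at 51.9. The RefSeq models of RBFOX1 and CTNNA2 are longer than the spans used, by 0.780 and 0.327 Mb, so part of their flanks may belong to the genes. CTNNA2, with 73.0 and 66.5, and the CSMD genes, with 44.5 and 36.5 around CSMD1 and 38 and 49 around CSMD3, lay between flanks whose intervals overlapped.

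The numbers of peaks near the 5' ends of the spans were small, and small numbers are also what the density of the genes would give. Within 10 kb on either side the counts ran from 0 to 4, where the density of each gene would give 0.722 to 1.55. Differences between the genes in these counts were not tested. Span limits are given to 1 kb, and the 5' end of a span was taken from the known direction of transcription. The RefSeq models of RBFOX1 and CTNNA2 are longer than their spans, by 0.780 and 0.327 Mb. For these genes the 5' end of the span may therefore lie inside the gene, and upstream means upstream of the span. In LRP1B a peak of 568 bp (142888483 to 142889050) covered the 5' end, and 4 peaks lay within 10 kb of it, where 1.55 would lie at the density of the gene. In PTPRD a peak of 453 bp (10612251 to 10612703), the widest of that gene, lay within 1 kb of the 5' end, and 2 peaks lay within 10 kb. CNTNAP2 and CSMD1 had none within 10 kb, where 0.824 and 0.826 would lie at the density of these genes. Their nearest peaks lay 12.4 kb upstream and 24.1 kb inside. In the remaining genes the peak nearest the 5' end of the span lay 4.25 kb upstream (RBFOX1), 4.47 kb inside (CTNNA2), 5.29 kb upstream (DLG2) and 8.97 kb inside (CSMD3). Within 50 kb on either side the counts ranged from 3 in CSMD1 and PTPRD to 12 in LRP1B, where the gene's density would give 7.74. PTPRD had all 3 of these inside the gene.

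The sequences before the outermost annotated starts of 3 of these genes show how differently these starts are built. They are the 250 bases before the start, from RefSeq on GRCh38.p14, printed 5' to 3' on the strand of the gene, with each CG pair in capitals. PTPRD, with a peak within 1 kb of its 5' end, DLG2, with a peak upstream, and CNTNAP2, with none within 10 kb, are shown as contrasting cases, and their RefSeq models match the spans in length (2.30, 2.17 and 2.30 Mb against 2.299, 2.172 and 2.305 Mb). The windows are chr9:10613003-10613252 on the minus strand, chr11:85628374-85628623 on the minus strand and chr7:146116551-146116800 on the plus strand.
PTPRD: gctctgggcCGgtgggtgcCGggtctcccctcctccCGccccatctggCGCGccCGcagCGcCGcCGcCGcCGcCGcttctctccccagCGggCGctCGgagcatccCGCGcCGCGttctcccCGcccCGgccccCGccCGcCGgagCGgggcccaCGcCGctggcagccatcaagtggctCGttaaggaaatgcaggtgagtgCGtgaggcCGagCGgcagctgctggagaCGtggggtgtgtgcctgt
DLG2: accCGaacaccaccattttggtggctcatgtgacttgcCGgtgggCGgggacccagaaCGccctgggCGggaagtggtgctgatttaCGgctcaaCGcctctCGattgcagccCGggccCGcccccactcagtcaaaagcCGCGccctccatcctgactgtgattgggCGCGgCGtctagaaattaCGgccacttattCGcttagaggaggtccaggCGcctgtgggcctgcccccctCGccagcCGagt
CNTNAP2: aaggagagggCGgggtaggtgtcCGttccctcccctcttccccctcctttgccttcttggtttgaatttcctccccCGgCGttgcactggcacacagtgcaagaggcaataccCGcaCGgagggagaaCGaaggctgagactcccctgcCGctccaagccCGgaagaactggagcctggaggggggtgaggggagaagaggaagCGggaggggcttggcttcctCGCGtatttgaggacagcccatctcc

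The PTPRD window holds 32 CG pairs and is 76.0% G and C, the DLG2 window 20 pairs at 64.0% and the CNTNAP2 window 12 pairs at 62.4%. Of the 35116 promoter windows of the RefSeq table, 9.52% hold at least as many CG pairs as that of PTPRD, 32.4% as that of DLG2 and 48.5% as that of CNTNAP2. The median window has 11 pairs, and 93.9% have at least 1. CG reads the same on both strands. The peaks, on hg19, were not placed on these sequences, and a count of CG pairs is a description of the window only. A window before an outermost start was at hand for 4 of the 8 genes, LRP1B and CSMD1 not among them. The window of CTNNA2, not printed here, holds 2 CG pairs and is 39.2% G and C, and 85.3% of the windows hold at least as many pairs. That gene had 2 peaks within 10 kb of the 5' end of its span. A link between peaks and CG pairs was not tested. For CTNNA2 and RBFOX1, whose models are longer than the spans, the 5' ends of the spans need not be the outermost starts.

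Along the genes, no part of the length held clearly more peaks than another. With each span cut into 3 equal parts, the 5', middle and 3' parts together held 239, 226 and 245 peaks, or 48.5 (42.6 to 55.1), 45.9 (40.1 to 52.3) and 49.7 (43.7 to 56.4) per Mb. In single genes the 5' part held between 30.6% of the peaks (CSMD1, 95% Wilson interval 21.8 to 41.0%) and 35.4% (CTNNA2, 25.8 to 46.4%). CNTNAP2 had the fewest peaks in its middle part, 26 against 33 and 36, and DLG2 the most, 31 against 26 and 26. The intervals of the 3 parts overlapped within each of the 8 genes.

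Bins of 100 kb, read from the 5' end, held 4.13 ± 1.60 peaks in CNTNAP2 (SD over 23 whole bins), 3.50 ± 2.04 in PTPRD (22 bins), 4.20 ± 2.17 in CSMD1 (20 bins) and 4.08 ± 1.98 in CSMD3 (12 bins). In DLG2 they held 3.81 ± 1.33 (21 bins), in RBFOX1 5.19 ± 2.23 (16 bins), in CTNNA2 7.09 ± 2.26 (11 bins) and in LRP1B 7.74 ± 2.77 (19 bins). The variance of these counts divided by their mean, which is 1 for counts that scatter at random, was lowest in DLG2 at 0.463 and highest in PTPRD at 1.19. Over the rest of the same chromosomes this ratio lay between 1.58 and 2.08, which includes the drift of density over whole chromosomes. In the flanks, over 40 bins around each gene and with the variance taken within each side, it lay between 1.03 around DLG2 and 1.93 around LRP1B. The ratio of the gene was below that of its flanks in 7 of the 8 genes, such as CNTNAP2 (0.623 against 1.34) and LRP1B (0.989 against 1.93), and above it in PTPRD (1.19 against 1.13). These ratios rest on 11 to 23 bins a gene and have no interval here.

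**Figure D2:**
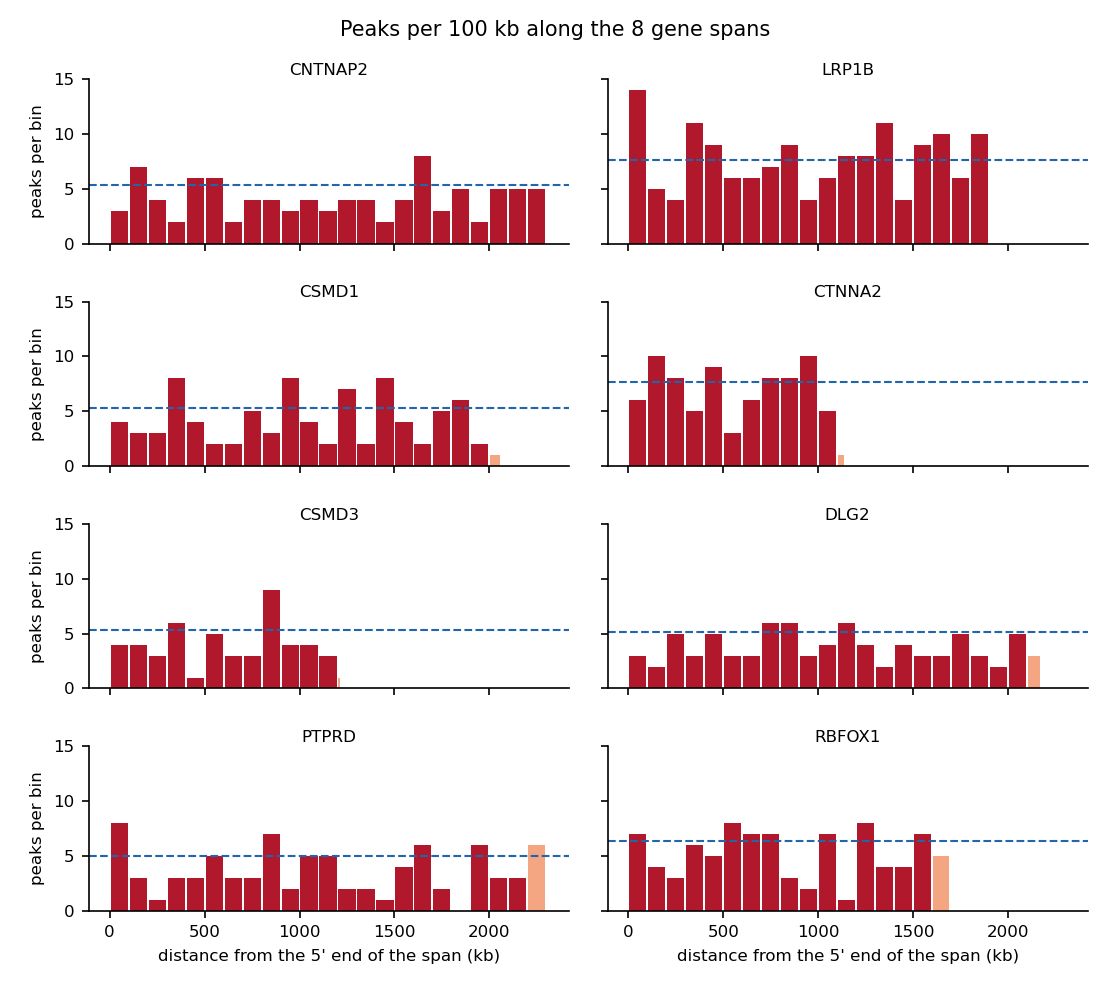
Peaks in each 100 kb bin (vertical axis) against the distance from the 5' end of the span in kb (horizontal axis), with a last bin shorter than 100 kb in a lighter shade and the mean bin of the rest of the chromosome as a dashed line. The first bins of LRP1B, with 14 peaks, and PTPRD, with 8, are the fullest of those genes.

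Both genes with a peak at the 5' end also had their fullest bin there, but that peak is itself counted in the bin. The next fullest bins held 11 peaks in LRP1B and 7 in PTPRD. The first 100 kb of LRP1B (142789001 to 142889000) held 14 peaks and the first 100 kb of PTPRD (10513001 to 10613000) held 8. In the other genes the fullest bin lay inside: from 1600 kb in CNTNAP2 (8 peaks), 300 kb in CSMD1 (8, the first of several tied bins), 800 kb in CSMD3 (9), 100 kb in CTNNA2 (10, again tied), 700 kb in DLG2 (6, tied) and 500 kb in RBFOX1 (8, tied). A bin of 10 or more peaks occurred 5 times in LRP1B and 2 times in CTNNA2, and not in the other 6 genes. On the rest of chromosome 2 such bins made up 26.9%, and on the rest of the other 5 chromosomes between 9.69 and 16.5%. Only 1 whole bin was empty, in PTPRD from 1800 to 1900 kb, beside 6.55% of the bins of the rest of chromosome 9.

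The 6 genes off chromosome 2 had longer median gaps between peaks than the rest of their chromosomes. The median gap was 21.7 kb in DLG2, against 11.4 kb on the rest of chromosome 11, 19.0 kb in CSMD3, 18.3 kb in PTPRD, 17.0 kb in CNTNAP2, 14.4 kb in CSMD1 and 12.8 kb in RBFOX1. In CTNNA2 it was 8.99 kb and in LRP1B 7.49 kb, beside 7.99 kb on the rest of chromosome 2. The longest gap of the 8 genes was one of 153.2 kb in PTPRD (8694314 to 8847531), followed by 131.3 kb in CNTNAP2 (146044047 to 146175363) and 105.7 kb in CSMD3 (114201098 to 114306808). DLG2 (84355471 to 84456290) and RBFOX1 (7131881 to 7232265) had gaps of 100.8 and 100.4 kb. CSMD1 (4690357 to 4777477) had 87.1 kb, LRP1B (141922492 to 141988213) 65.7 kb and CTNNA2 (80748628 to 80804393) 55.8 kb.

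Another peak lay within 5 kb of 27.7% of the DLG2 peaks (95% Wilson interval 19.2 to 38.2%), against 49.6% on the rest of chromosome 11. The shares were 30.6% in CSMD1 (21.8 to 41.0%, rest 49.3%), 32.5% in PTPRD (23.4 to 43.2%, rest 48.4%) and 38.6% in RBFOX1 (29.1 to 49.1%, rest 54.4%). For these 4 genes the interval lay below the share of the chromosome. Both peaks of a close pair are counted, so the peaks are not independent here and the intervals can be too narrow. CNTNAP2 at 41.1% (31.7 to 51.1%, rest 50.6%) and CSMD3 at 38% (25.9 to 51.8%, rest 49.3%) had intervals that include it. CTNNA2 at 59.5% (48.5 to 69.6%) and LRP1B at 64.6% (56.6 to 71.9%) stood beside 59.3% on the rest of chromosome 2. Within 1 kb the order differed, with the highest share in CNTNAP2, 18.9%, against 16.3% in LRP1B and 15.2% in CTNNA2. A lower density alone lowers the share within 5 kb, and its part was not tested.

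Wide peaks were scarce in all 8 genes, also where peaks were as dense as on the chromosome. A peak of 420 bp or wider, the edge past which widths of the whole list fall off, made up 36 of the 710 member peaks, or 5.07% (95% Wilson interval 3.68 to 6.94%). The share was 13.5% (12.0 to 15.2%) in the flanks and 18.1% (17.8 to 18.5%) on the rest of the 6 chromosomes. Each gene had a lower share than its flanks and than its chromosome. The interval of the gene lay below the share of the rest of the chromosome in all 8, but below the share of its flanks in 4, and it included the flanks in CSMD1, PTPRD, CTNNA2 and DLG2. Here the shares of flanks and chromosome were taken without their own error. With it, the interval of CSMD3 (0.354 to 10.5%) overlapped that of its flanks (7.10 to 16.4%). That of DLG2 (3.36 to 14.9%) overlapped that of the rest of its chromosome (14.7 to 16.4%). MACS widths can follow the number of reads under a peak, and the list carries no height, so width and strength cannot be told apart here.

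RBFOX1 had 3 wide peaks, 3.41% (1.17 to 9.55%), against 17.1% in its flanks and 22.3% on the rest of chromosome 16. CNTNAP2 had 2 (2.11%, 0.579 to 7.35%), against 11.6% and 16.0%. In PTPRD there were 2 (2.41%, 0.663 to 8.37%), against 7.82% and 16.0%, and 1 of them was the peak at its 5' end. CSMD3 had 1 (2%, 0.354 to 10.5%) and CSMD1 had 4 (4.71%, 1.85 to 11.5%), against 10.9% and 9.88% in their flanks and 15.3% on the rest of chromosome 8. CTNNA2 had 5 (6.33%, 2.73 to 13.97%) and DLG2 6 (7.23%, 3.36 to 14.9%), with 11.8% and 14.8% in their flanks. LRP1B had 13 (8.84%, 5.24 to 14.5%), against 18.7% in its flanks and 20.8% on the rest of chromosome 2, although its density was 1.01 times that of the chromosome.

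**Figure D3:**
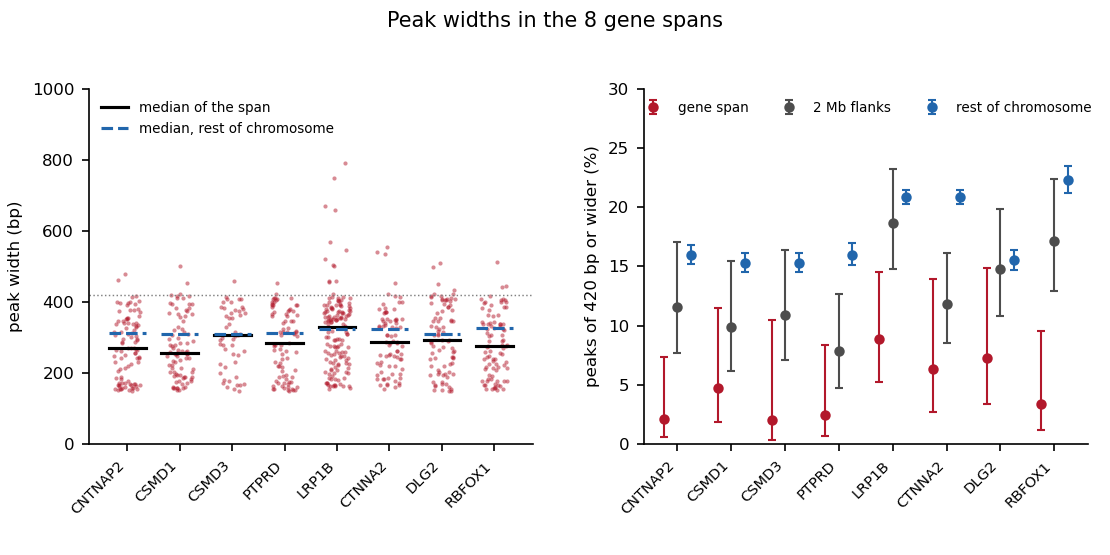
Left, the width in bp of every peak of each gene (points), the median of the gene (black line) and of the rest of its chromosome (blue dashes), with a dotted line at 420 bp. Right, the percentage of peaks of 420 bp or wider in the gene, its flanks and the rest of its chromosome, with 95% Wilson intervals. The genes sit between 2 and 8.84%, each below its chromosome.

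The class just below this limit differed between the genes. Peaks of 350 to 419 bp made up 25.9% of the member peaks (22.8 to 29.3%), beside 21.5% on the rest of the chromosomes. In LRP1B they made up 34.7% (27.5 to 42.7%), beside 21.0%, and in CSMD3 36% (24.1 to 49.9%), beside 21.3%, and the intervals of these genes lay above their chromosomes. In CNTNAP2 (20%, beside 22.1%), CSMD1 (20%, beside 21.3%) and RBFOX1 (19.3%, beside 21.3%) the share was below that of the chromosome, within its interval. Counted from 350 bp upward without an upper limit, wide peaks in LRP1B and CSMD3 stood at 1.04 times the share of their chromosomes, and the other 6 genes stayed below 1, from 0.521 in RBFOX1 to 0.879 in DLG2. Peaks narrower than 170 bp, near the fragment length of 128 bp given to MACS, made up 11.97% of the member peaks (9.79 to 14.6%), beside 7.95%. CNTNAP2 had the largest share of them, 20% (13.2 to 29.1%), and CTNNA2 the smallest, 6.33% (2.73 to 13.97%).

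Median widths were lower than on the rest of the chromosome in 7 of the 8 genes. The median was 256 bp in CSMD1 (95% interval 235 to 283 bp, from the order of the widths), 271 bp in CNTNAP2 (244 to 308 bp) and 275.5 bp in RBFOX1 (239 to 312 bp), against 309, 313 and 327 bp. PTPRD had 283 bp (253 to 319 bp) against 313 bp, CTNNA2 288 bp (253 to 330 bp) against 323 bp, and DLG2 293 bp (263 to 331 bp) against 311 bp. CSMD3 had 305.5 bp (267 to 356 bp) against 309 bp. LRP1B was the exception, with 330 bp (294 to 351 bp) against 323 bp. The intervals of CSMD1, CNTNAP2 and RBFOX1 lay below the median of their chromosome. Against its flanks the median was lower in 6 of the 8 genes, and not in CSMD3 (flanks 304 bp) and LRP1B (327 bp). The intervals of CSMD1 and RBFOX1 also lay below the medians of their flanks, 294 and 326 bp. That of CNTNAP2 included its flank median of 305 bp.

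Peaks of 500 bp or wider numbered 15 among the members, or 2.11%, beside 11.4% on the rest of the 6 chromosomes. LRP1B held 9 of these 15 among its 147 peaks, and CTNNA2, on the same chromosome, held 3. The widest peak of the 8 genes, 791 bp, lay 1599 kb inside LRP1B (141289916 to 141290706). The widest of CTNNA2 was 556 bp (80659756 to 80660311), that of RBFOX1 513 bp (6244532 to 6245044) and that of DLG2 510 bp (84513346 to 84513855). CSMD1 (2884472 to 2884973), CNTNAP2 (148065396 to 148065874) and CSMD3 (113907400 to 113907858) reached 502, 479 and 459 bp. No member peak reached 1 kb, a width that 1.02% of the peaks on the rest of the chromosomes had. Of the 36 wide peaks, 2 lay within 10 kb of a 5' end, those of LRP1B and PTPRD, and the others lay farther inside the genes. Of all 710 member peaks, 7 lay that near a 5' end. Just inside the limit of 420 bp were 7 peaks of 420 to 423 bp, in CSMD1, DLG2, PTPRD, LRP1B and CTNNA2, and the nearest outside it were peaks of 418 bp in CSMD1 and DLG2.

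RBFOX1 and CTNNA2 had the largest shares of peaks that the list repeats. The deposited rows give some peaks more than once with the same start and end. In RBFOX1, 45 of 88 peaks had more than 1 row, or 51.1% (95% Wilson interval 40.9 to 61.3%), against 15.1% on the rest of chromosome 16. In CTNNA2 19 of 79 did, or 24.1% (15.97 to 34.5%), against 8.85% on the rest of chromosome 2. LRP1B, on the same chromosome, had 2 of 147, or 1.36% (0.374 to 4.82%). CNTNAP2, CSMD1 and CSMD3 had 1 each, PTPRD 4 of 83 and DLG2 8 of 83. The share of DLG2, 9.64% (4.97 to 17.9%), stood beside 12.7% on the rest of chromosome 11, and its interval overlapped that of CTNNA2.

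In RBFOX1, 42 of the 45 repeated peaks formed an unbroken block at the 5' side of the span. The first 42 peaks, from 6089286 to 6801568, were all listed 2 or 3 times. The next 38, from 6827595 to 7654594, were all listed once. A group of 3 repeated peaks followed (7664400 to 7668770), and the last 5 were single. The 4 peaks with 3 rows lay 50.0, 54.1, 62.3 and 553 kb from the 5' end. The change fell between peaks 732 and 759 kb from the 5' end. On its sides the peaks had like widths, with medians of 264.5 bp (quartiles 188.75 and 326 bp) and 275.5 bp (213.5 and 356.5 bp). The repeated block had 57.6 gaps between neighbouring peaks per Mb and the single block 44.7, a difference that was not tested.

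**Figure D4:**
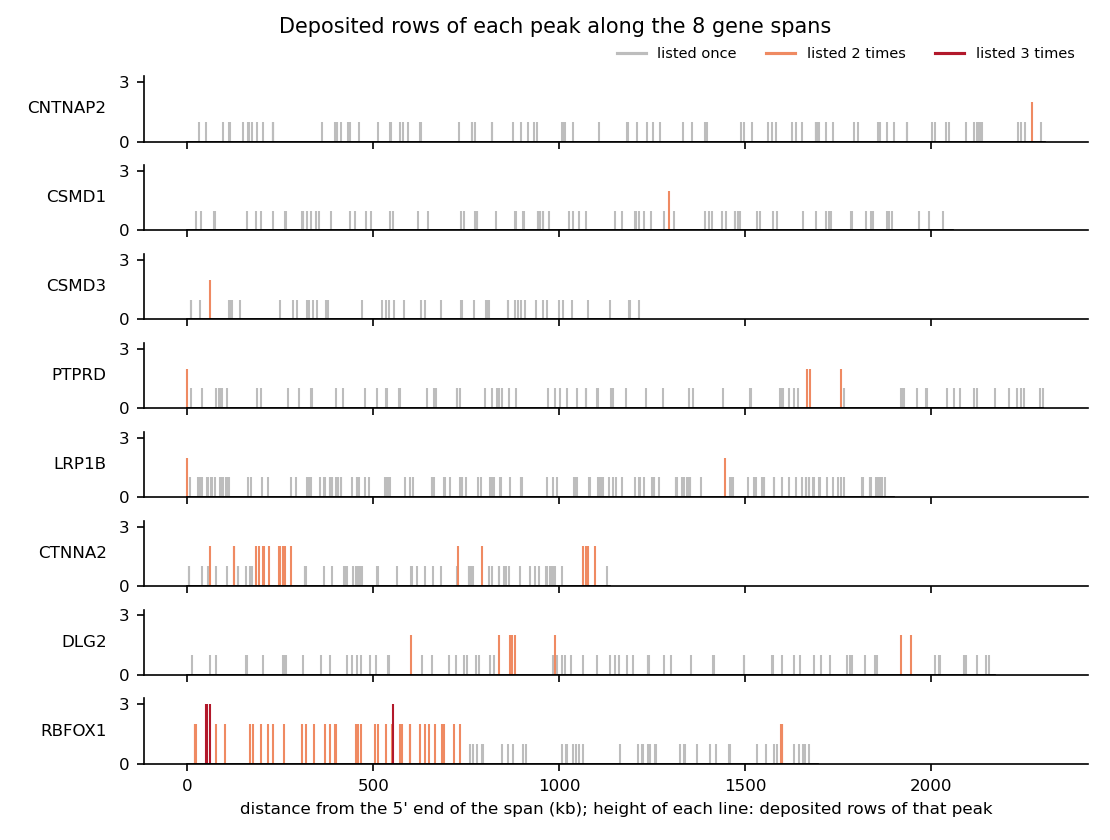
Each vertical line is 1 peak at its distance from the 5' end of the span in kb (horizontal axis), and its height and colour give the number of deposited rows. The first 42 peaks of RBFOX1 have 2 or 3 rows and the next 38 have 1, while CTNNA2 has a run of 10 repeated peaks from 186 to 279 kb.

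In CTNNA2 the repeated peaks formed shorter runs, the longest of 10 peaks from 79925516 to 80019359, and another of 4 near the 3' end (80804394 to 80836318). DLG2 had a run of 4 (84456291 to 84499633) and PTPRD a run of 3 (8856011 to 8947431). The peaks at the 5' ends of LRP1B and PTPRD were repeated as well, which makes them 2 of the 6 repeated peaks of those genes. In the RefSeq gene table (GRCh38.p14) CTNNA2 is overlapped by 1 other protein-coding gene, LRRTM1, which encodes a synaptic adhesion protein, and none of the other 7 genes by any. What sets the number of rows was not tested. Counting rows in place of distinct peaks raised RBFOX1 to 80.9 per Mb, above its flanks (1.17) and its chromosome (1.08), and put 46.7% of its rows in the 5' part.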

How the data were processed

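H3K4me1 ChIP-seq libraries of LSD2-knockdown and control HepG2 cells were sequenced on semiconductor instruments, per the labels' protocols, and the submitters' processing notes name BWA and hg19, without versions. The deposited list gives a chromosome, start and end per peak and no other measurement. Per the file header, MACS compared trimmed reads without duplicates (p-value cutoff 1e-05, enrichment factor 32, read and fragment length 128 bp, effective genome size 2700000000 bp, local biases on).

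From the 180505 rows, distinct peaks were counted once and positions written from 1. Gene spans came from the stated rule and the direction of transcription from general knowledge. An hg19 annotation was not used here, so a further list of 24 neuronal genes was not analysed. Lengths leave out peak-free gaps over 1 Mb. Intervals (95%) are exact Poisson for densities, exact conditional binomial for density ratios and Wilson for shares, and treat peaks as independent. All 8 members are named, each with its widest peak, fullest 100 kb bin, longest gap, peak nearest the 5' end and, if listed 3 or more times, its most repeated peaks. The members and lists were chosen with earlier results of these data known, as was the 420 bp limit. Python 3.11.15, NumPy 2.4.6 and SciPy 1.17.1 were used. The counting was tested on simulated peaks of known density.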

Additional observations from a re-analysis of the deposited data

How the results depend on the processing

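For single genes 232 values were recomputed, leaving aside the settings added after the data were seen. Of these, 168 stayed within the 95% interval of the reported value and 64 were counted as moved. The 64 include the 8 shares of the span covered by peaks, which have another unit and were counted as moved without a comparison. They also include shares for bins and neighbour distances of other sizes, which differ by construction. No density ratio crossed 1 whose interval lay on 1 side of it. Every density stayed within its interval when midpoints decided membership, when peaks within 1 kb were merged and when spans were extended by 10 kb. Restricting the list to peaks of at least the median width lowered the densities, by construction, to 14.8 per Mb in CNTNAP2, 12.1 in CSMD1, 18.1 in CSMD3, 14.4 in PTPRD, 40.5 in LRP1B, 29.9 in CTNNA2, 17.0 in DLG2 and 20.1 in RBFOX1. It also moved the ratios to the flanks and to the chromosome in CNTNAP2 (0.694 and 0.557), CSMD1 (0.747 and 0.479) and RBFOX1 (0.604 and 0.597), and the share in the 5' part in CSMD1 (20%) and RBFOX1 (23.5%). Peaks covered 1.13% of CNTNAP2, 1.12% of CSMD1, 1.23% of CSMD3, 1.03% of PTPRD, 2.48% of LRP1B, 2.05% of CTNNA2, 1.14% of DLG2 and 1.46% of RBFOX1, and by covered bases RBFOX1 stood at 0.632 of its chromosome. Counting rows moved RBFOX1 beyond its intervals, to 80.9 per Mb, 1.17 of its flanks, 1.08 of its chromosome and 46.7% in the 5' part, while CTNNA2 rose to 86.3 per Mb and 1.22 of its flanks within its intervals. Flanks of 1 and 5 Mb moved PTPRD alone, to 1.09 and 0.608. With bins of 5 kb the share with a peak was, in the order of CNTNAP2, CSMD1, CSMD3, PTPRD, LRP1B, CTNNA2, DLG2 and RBFOX1, 18.0, 19.2, 19.0, 16.3, 33.9, 30.4, 17.7 and 22.8%, and with bins of 20 kb 54.8, 53.9, 55.0, 50.0, 75.8, 75, 58.3 and 64.3%, by construction. In the same order, a neighbour lay within 1 kb of 18.9, 11.8, 0, 7.23, 16.3, 15.2, 4.82 and 6.82% of the peaks and within 20 kb of 87.4, 87.1, 78.0, 84.3, 98.6, 92.4, 80.7 and 93.2%. The 0 in CSMD3 is out of 50 peaks, which allows a share of up to 6%. Merging lowered the share within 5 kb in CNTNAP2 to 28.2%. The following were added after the data were seen. Without the genes on chromosome 2 the density over the members was 41.2 per Mb. With the flank variance over 100 kb bins taken over both sides together, a step between the sides included, the ratio of the gene was below that of its flanks in 8 of 8 genes, and within each side in 7. At 350 bp in place of 420 bp, wide peaks were 1.04 times as frequent as on the chromosome in CSMD3 and 1.04 times in LRP1B, so the direction turned there, and in the other 6 genes it stayed below 1. At 300 bp all 8 ratios lay below 1, the highest at 0.992. The cause of the changes in PTPRD was not tested. Leaving out a replicate was not possible with single libraries. No paired analysis was possible because the call rests on 1 library of each kind, without replicate numbers in the labels. The depth is unknown, so a stretch without a peak cannot be read as unchanged.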
